A study of Mus musculus with 4 samples.

Results

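The regions described here are the N6-methyladenosine (m6A) peaks of mouse heart that lie on transcripts annotated as retained introns. They were chosen as the lines of the deposited peak lists whose transcript biotype is retained_intron, with no rule on enrichment or significance. There were 4405 such lines among 39717 (11.1%), on 1681 of the 6653 genes with a peak of any biotype (25.3%). The NC list held 2673 of its 23155 lines (11.5%), spread over 1441 genes and 2241 transcripts. The CHAPIR list held 1732 of 16562 (10.5%), spread over 1037 genes and 1510 transcripts. A peak is listed once for every transcript it was called on, so lines of one gene repeat the same reads and are not independent.

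The peaks came from methylated RNA immunoprecipitation and sequencing (MeRIP-seq), in which fragmented messenger RNA is pulled down with an antibody to m6A and compared with the input RNA. The hearts were from C57BL/6 mice that carried implanted osmotic minipumps for 14 days. One group was given a mimic of the piRNA CHAPIR at 30 mg/kg (piRNAs are small RNAs that bind PIWI proteins), and the control group (NC) received a scrambled mimic in the same way. The dose of the scrambled mimic, the age and sex of the mice and the number of hearts in a library are not in the labels. Each group had 1 immunoprecipitated library set over 1 input library, so no difference between the groups has a replicate check and none was tested. The depth of the libraries is unknown from the lists. Intervals below are 95% Wilson intervals, which cover counting error and not the spread between mice. All 6 cardiomyocyte markers examined had a peak of some biotype in these bulk samples, and so had 5 of 6 endothelial, 5 of 6 fibroblast and 8 of 9 macrophage and immune markers. In bulk RNA, fewer cells of a type and less RNA per cell cannot be told apart.

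A retained-intron transcript is an annotated non-coding variant of a gene that keeps a stretch which the gene's other transcripts splice out. Such RNAs are often held in the nucleus or degraded, and genes for splicing factors are known for regulated retention. m6A is written by the METTL3 and METTL14 complex on adenosines within the DRACH consensus, and in messenger RNA it gathers near stop codons. A retained-intron model also contains ordinary exons beside the intron it keeps, so a peak listed on it can consist of bases that the protein-coding transcript has as well.

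The start windows of RefSeq (build GRCm38.p6) held 25 stretches of NC retained-intron peaks and 26 of CHAPIR peaks at the start of the peak's own gene, each of 25 to 118 bases. The NC line of Ahcyl1 lay under 2 windows and gave 2 overlapping stretches, of 42 and 61 bases. Stretches from 6 genes are printed 5′ to 3′ on the RNA strand, with the DRACH match in capitals. They were picked from the stretches that hold a match, so they do not show how common it is. In DRACH, D is A, G or T, R is A or G, and H is A, C or T.
Actn2, chr13:12340698-12340726, minus strand, CHAPIR list: gtacttcgccggAGACTccgcgcccaggc
Fkbp3, chr12:65073889-65073906, minus strand, CHAPIR list: cgcagcgtgcatGGACCg
Uqcrh, chr4:116075033-116075059, minus strand, both lists: atccgtcgagTGACCcttactagtcct
Acadvl, chr11:70015383-70015411, minus strand, both lists: gagtcagggcccAGACAcacaacctttgg
Ppp4c, chr7:126792431-126792459, minus strand, both lists: ggggagtcgaagAGACTcagccggagtct
Syf2, chr4:134930993-134931018, plus strand, NC list: taatggcggctgTGACTgaagttgtg
These genes encode alpha-actinin 2 of the Z-disc, an FK506-binding protein, a subunit of respiratory complex III, an acyl-CoA dehydrogenase of fatty acid oxidation, the catalytic subunit of protein phosphatase 4 and a spliceosome factor. A match was present in 8 of the 25 NC stretches and in 9 of the 26 CHAPIR stretches. In the stretches of 40 to 60 bases it was present in 1 of 8 and 3 of 12, against 17871 of 32851 (54.4%) of the first 50 transcribed bases of all RefSeq start windows. The stretches came from whole windows, which begin before the gene start and end 50 bases after it. The background came from all genes and only from those last 50 bases. The 2 sets thus differ in position and genes, and no depletion can be read from them. Only the RNA strand and this motif were searched. The letters of the peaks outside these windows were not analysed here.

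The question asked first was whether retained-intron peaks mark sequence that the coding transcript lacks. Most lines shared exonic bases with a protein-coding line of the same gene, strand and list: 2456 of 2673 NC lines (91.9%, 90.8 to 92.9) and 1587 of 1732 CHAPIR lines (91.6%, 90.2 to 92.8). The sharing was deep, with a median of 96.7% of an NC line's bases and 98.1% of a CHAPIR line's bases under protein-coding lines. Every base was covered in 838 NC lines and 611 CHAPIR lines, while 37 and 59 lines had the same coordinates as a protein-coding line. Other non-coding biotypes gave like shares: 91.9% of NC and 91.1% of CHAPIR lines on nonsense-mediated decay transcripts shared protein-coding bases, as did 90.7% and 88.5% of those on processed transcripts.

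**Figure D1:**
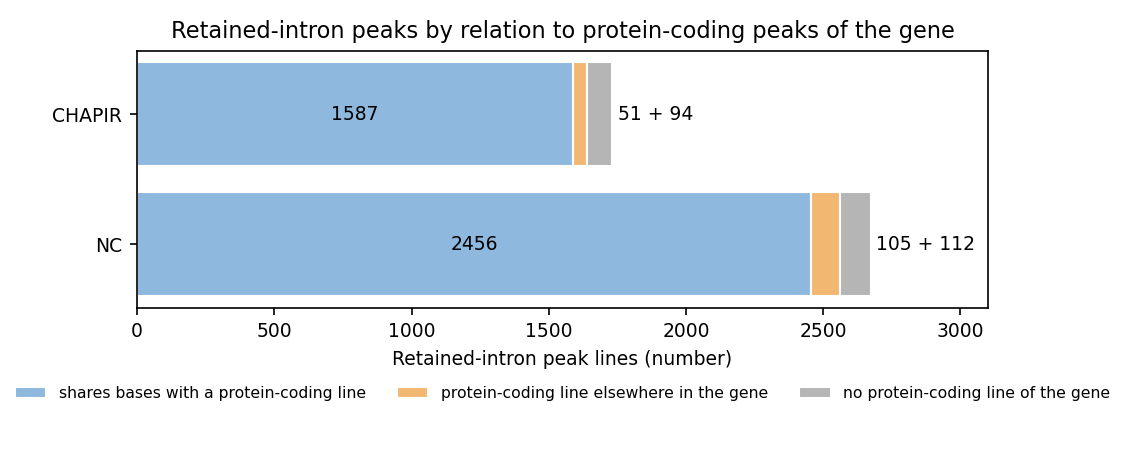
Number of retained-intron peak lines (x axis) in the NC and CHAPIR lists, split by their relation to protein-coding peak lines of the same gene in the same list. The 2456 and 1587 lines that share bases fill most of each bar, and the remainder has 105 and 112 lines in NC and 51 and 94 lines in CHAPIR.

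The remaining 217 NC lines (152 genes) and 145 CHAPIR lines (109 genes) lay only on the retained-intron model. In 105 NC lines (3.93%, 3.26 to 4.73) and 51 CHAPIR lines (2.94%, 2.25 to 3.85) the gene had a protein-coding line elsewhere. In 112 NC lines (4.19%, 3.49 to 5.02) and 94 CHAPIR lines (5.43%, 4.46 to 6.60) it had none in that list. This class means that no protein-coding peak was listed there, which is not the same as the absence of a protein-coding exon.

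Where a retained-intron line shared bases with a protein-coding line, the authors' fold enrichment over input was close to that of its partner. The ratio of the retained-intron fold to the fold of the protein-coding line with most shared bases had a median of 1.0 in both lists, with quartiles of 0.917 and 1.05 in NC and 0.899 and 1.05 in CHAPIR. It lay within 1.5-fold in 2059 NC pairs (83.8%) and 1328 CHAPIR pairs (83.7%). The retained-intron line was over 1.5-fold higher in 144 NC and 83 CHAPIR pairs and as far lower in 253 and 176. Both lines of a pair are counted from largely the same reads, so the ratio describes the listing and is no test.

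**Figure D2:**
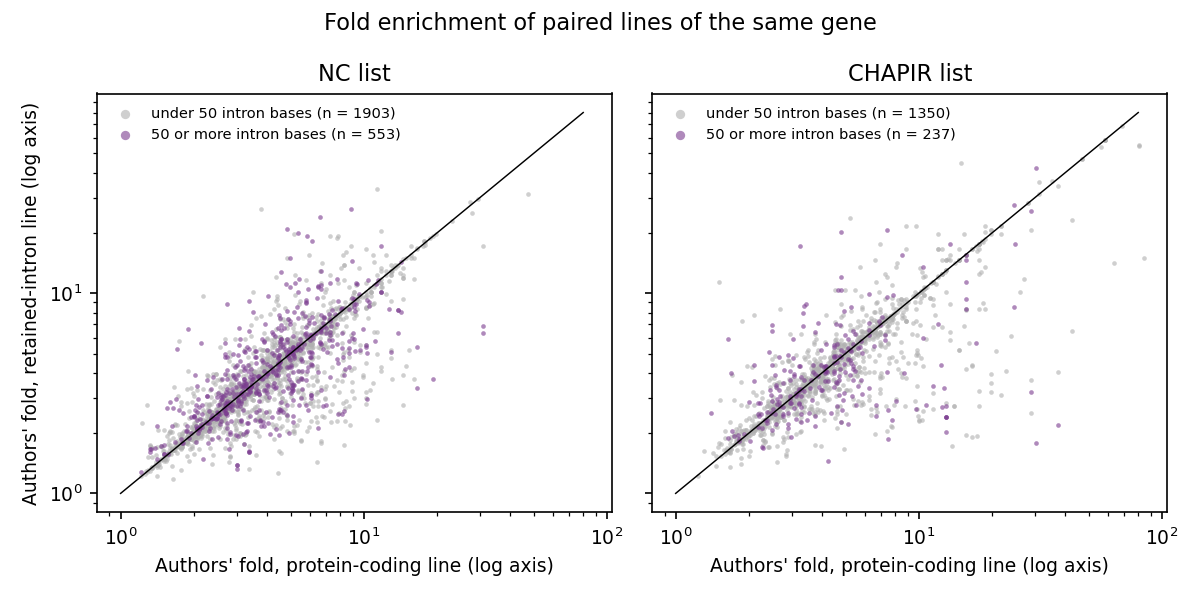
The authors' fold enrichment of each retained-intron line (y axis, log scale) against that of the protein-coding line of its gene with most shared bases (x axis, log scale), with NC at the left and CHAPIR at the right. Purple points are lines with 50 or more intron bases, and the diagonal marks equal folds, which most points follow.

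Retained-intron lines resembled all lines of their list in strength. Their median fold was 3.44 in NC and 3.855 in CHAPIR (all lines 3.49 and 3.86), and the highest folds were 33.3 and 68.7. The authors' false discovery rate (FDR) was at or under 1e-05 in 1515 NC lines (56.7%) and 1077 CHAPIR lines (62.2%), against a background of 56.2% and 61.7% of all lines. Their median width over exonic blocks was 210 bases in NC and 180 in CHAPIR, against 238 and 181 for all lines. A single block made up 50.6% of NC and 59.8% of CHAPIR retained-intron lines, against 57.5% and 71.1% of protein-coding lines and 55.4% and 68.5% of all lines. The shares were 44.8% and 59.2% on nonsense-mediated decay transcripts and 42.5% and 56.3% on processed transcripts. Fewer single blocks are thus not particular to retained-intron lines. Folds and FDRs depend on each library pair and were not scaled between the lists, so they are compared within a list.

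Within each list, the peaks that shared protein-coding bases were wider and more often of small FDR than those on the retained-intron model alone. Median width was 232.5 bases against 118 in NC and 201 against 120 in CHAPIR. An FDR at or under 1e-05 was reached by 59.7% against 22.1% in NC and by 65.2% against 29.0% in CHAPIR. Median fold was 3.49 against 2.86 in NC but 3.81 against 4.42 in CHAPIR. Any shared base put a peak in the sharing class, and a wider peak meets that rule more easily. The gap in width is thus tied to how the classes were set and is not a result about them. How far width bears on the gap in FDR was not tested.

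Along the gene, the midpoints of retained-intron peaks lay further from the 3′ end than those of protein-coding peaks. The median midpoint was at 72.7% of the RefSeq gene span in NC and 83.0% in CHAPIR, against 82.0% and 90.5% for protein-coding lines. The part from 80% of the span onward held 41.9% and 53.4% of retained-intron lines and 52.5% and 64.4% of protein-coding lines. The part up to 20% held 12.4% and 10.4% against 8.16% and 6.07%. The other non-coding biotypes were also further from the 3′ end than protein-coding lines. Median midpoints were 77.4% and 86.6% on nonsense-mediated decay transcripts and 77.8% and 87.4% on processed transcripts. The part up to 20% held 8.81% and 7.39% of the former and 11.8% and 11.5% of the latter. A shift of this direction is thus not particular to retained-intron lines. The midpoint was taken over the genomic span of the peak, introns included. A peak of several blocks can thus be placed in an intron that it does not cover. Retained-intron lines were more often of several blocks than protein-coding lines, and how this bears on the shift was not tested. The span was found for 2659 NC and 1719 CHAPIR retained-intron lines. Retained-intron and protein-coding lines alike were nearer the 3′ end in the CHAPIR list than in the NC list.

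**Figure D3:**
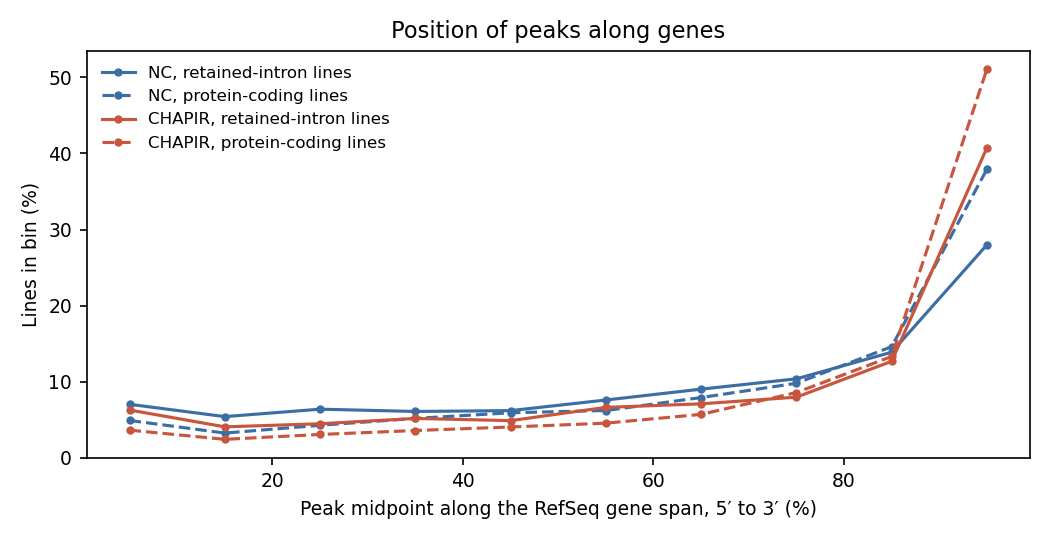
Share of lines (y axis, percent) by position of the peak midpoint along the RefSeq gene span from 5′ to 3′ (x axis, percent, 10 bins). Solid lines are retained-intron peaks and dashed lines protein-coding peaks. The protein-coding lines stand above the retained-intron lines of their list in the last bin, and below them in the first bin.

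Retained-intron peaks of one list were overlapped by the other list about as often as peaks in general, or slightly more. A CHAPIR line of any biotype shared at least 1 exonic base on the same strand with 1425 of 2673 NC lines (53.3%, 51.4 to 55.2), against a background of 50.5% of all NC lines. An NC line did so for 1323 of 1732 CHAPIR lines (76.4%, 74.3 to 78.3), against 72.3% of all CHAPIR lines. The lists differ in length, and with both cut to the same number of lines the retained-intron shares were 65.5% and 70.5%, against 63.0% and 66.7% of all lines. The class on the retained-intron model alone was overlapped less often, in 73 of 217 NC lines (33.6%, 27.7 to 40.2) and 79 of 145 CHAPIR lines (54.5%, 46.4 to 62.4). Lines sharing protein-coding bases were overlapped in 55.0% and 78.4%. Those lines were also wider, and a wider peak is overlapped more easily under this rule. How far width bears on this gap was not tested.

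Where both lists had overlapping peaks on the same retained-intron transcript, the NC peak was usually the wider. There were 1278 such pairs on 756 genes, with the NC line wider in 856, the CHAPIR line wider in 264 and equal widths in 158. The median width in these pairs was 301 bases in NC and 213 in CHAPIR, and 64.9% of their joint bases were shared at the median (quartiles 41.0 and 83.4). Identical blocks on the same transcript occurred in 135 pairs. Over all lines of any biotype the median width was also larger in NC, at 238 bases against 181 in CHAPIR. Wider NC peaks are thus not particular to retained-intron lines. Pairs on transcripts of other biotypes were not counted.

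By gene, 797 of 1681 genes had a retained-intron peak in both lists (47.4%), 644 in NC only (38.3%) and 240 in CHAPIR only (14.3%). Peaks of any biotype gave a background of 53.5% of genes in both lists, 31.3% in NC only and 15.3% in CHAPIR only. The 797 genes were 55.3% of the NC genes and 76.9% of the CHAPIR genes. Of the 644 NC-only genes, 422 had no line of any biotype in the CHAPIR list and 222 had a peak there on another biotype. Of the 240 CHAPIR-only genes, these numbers were 177 and 63. With both lists cut to the same number of lines there were 727 genes in both, 355 in NC only and 310 in CHAPIR only. The split of genes with a peak of any biotype was not computed at that length. A gene absent from a list had no significant peak there, which does not show that it was unmethylated.

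The next question was how many retained-intron peaks reach into sequence that the listed protein-coding transcripts splice out. Intron bases were counted as bases between consecutive blocks of a protein-coding peak line of the gene that no protein-coding line of either list covered. No exon annotation was used, so an exon of a coding transcript with no listed peak there would be counted as intron. By this measure 581 NC lines (21.7%) on 367 genes and 253 CHAPIR lines (14.6%) on 170 genes held at least 50 intron bases, with 153 genes in both, 214 in NC only and 17 in CHAPIR only. The median was 116 intron bases per such line in NC and 114 in CHAPIR. Peaks of any biotype gave 53.5% of genes in both lists, 31.3% in NC only and 15.3% in CHAPIR only. With the lists cut to equal length, the lines with at least 50 intron bases numbered 501 and 252. In the full lists, a line of the other list overlapped 64.5% and 95.3% of them, beside 50.5% and 72.3% of all lines. The NC list is longer and its paired peaks were wider, and how this bears on the counts was not tested. The lines with at least 50 intron bases had an FDR at or under 1e-05 in 75.6% and 75.5%, against 51.4% and 59.9% of the other retained-intron lines. They were also wider, with medians of 270 and 241 bases against 201 and 179. An intron could be placed for the genes of 74.0% of NC and 68.2% of CHAPIR lines, those with a protein-coding peak of several blocks. The counts depend on that, and the other lines include those with no placed intron. A line also needs 50 bases or more to enter the group. The gaps in FDR and width are thus tied to the selection and are not a result about intron bases. A peak is called over a stretch of the transcript model and the lists hold no coverage, so whether reads lay within the intron bases cannot be told from them.

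The ratio of folds spread wider in the lines with at least 50 intron bases, with quartiles of 0.806 and 1.19 in NC and 0.765 and 1.20 in CHAPIR, around medians of 1.00 and 0.997. A block ran through a whole intron in 59 NC lines of 47 genes and in 21 CHAPIR lines of 18 genes, with 15 genes in both lists. The genes in both lists included those for cardiac troponin T (Tnnt2), the chaperone Hsp90ab1, calmodulin (Calm2), the ribosomal proteins Rpl14 and Rps18, the RNA-binding proteins Serbp1, Hnrnpr and Ddx5, and the kinase Clk1. They were picked from the list of such genes after their values were seen.

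The peak of Hsp90ab1, a cytosolic heat shock chaperone, spanned the intron at chr17:45570567-45570665 (99 bases) with the same blocks in both lists, at a fold of 4.06 (FDR 1e-236) in NC and 3.27 (FDR 1e-107) in CHAPIR. Its protein-coding partner had folds of 5.10 and 4.0. The peak of Map7d1, a microtubule-associated protein, spanned the intron at chr4:126233998-126234097 (100 bases) at 5.22 and 3.88, with 4.39 and 3.08 for the protein-coding line. In Hsp90ab1 the retained-intron line was the lower of the pair in both lists, and in Map7d1 the higher.

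In Rps18, which encodes a small ribosomal subunit protein, a single block of 299 bases in NC and 239 bases in CHAPIR covered the intron at chr17:33952119-33952220 (102 bases), at folds of 2.05 and 2.52. In Rpl14, of the large subunit, the intron at chr9:120573676-120573763 (88 bases) lay within peaks of fold 2.52 and 3.13. The intron of Serbp1, an mRNA-binding protein, at chr6:67272028-67272138 (111 bases) lay within peaks of 3.42 and 2.43.

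**Figure D4:**
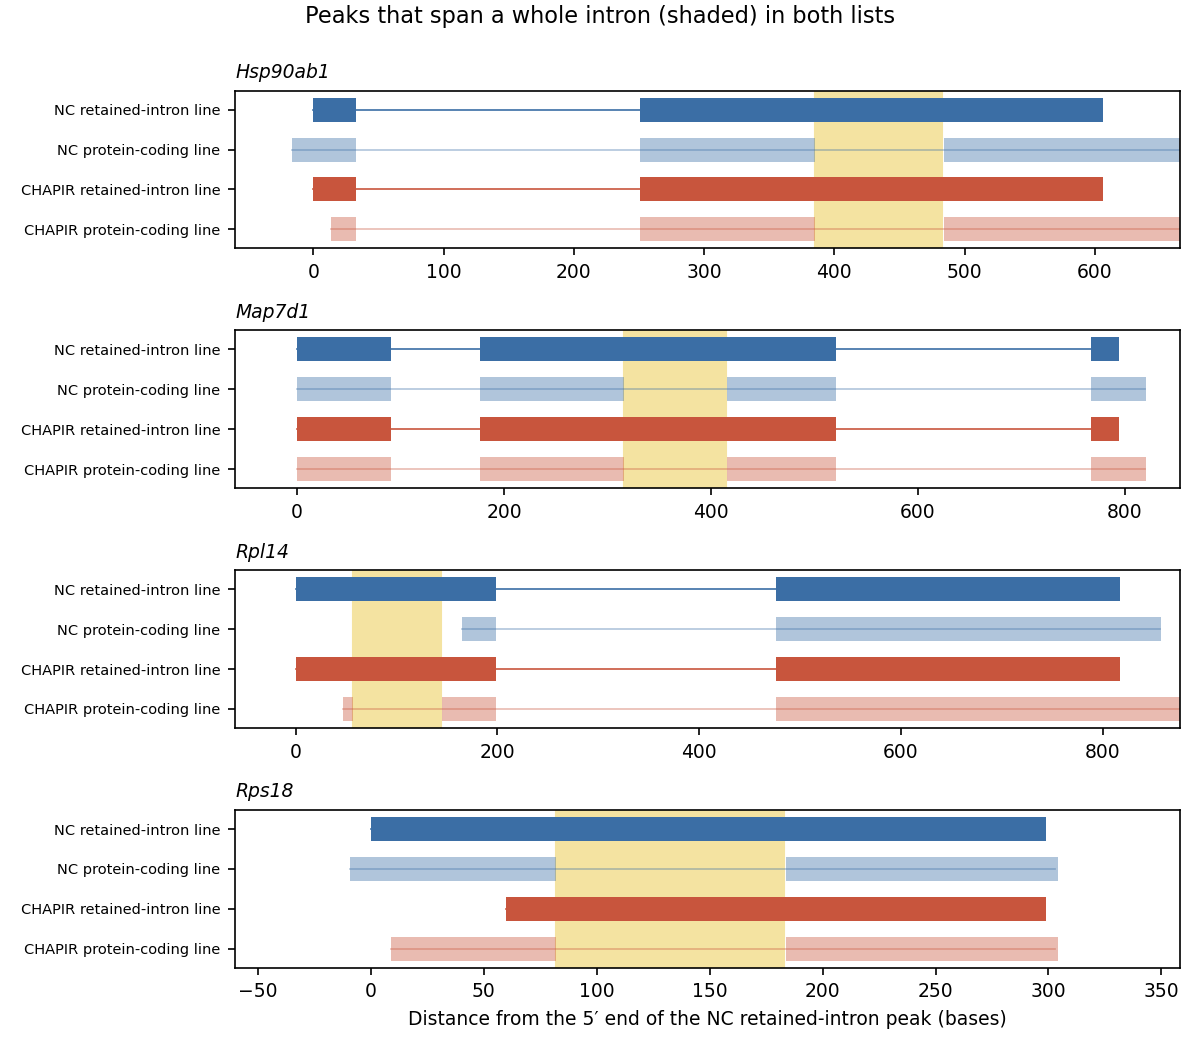
Exonic blocks of retained-intron lines (dark) and of the protein-coding lines with most shared bases (pale) in the NC list (blue) and the CHAPIR list (red) for Hsp90ab1, Map7d1, Rpl14 and Rps18, by distance from the 5′ end of the NC retained-intron peak (x axis, bases). Shading marks the spanned introns of 99, 100, 88 and 102 bases, and pale blocks that run past the panel are clipped.

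Of 43 sarcomere and Z-disc genes with any peak, 16 had a retained-intron peak (37.2%), 14 of them in both lists, beside 25.3% of all genes. A gene can have such a peak only if a retained-intron transcript is annotated for it. Genes with such a transcript were not counted, so in this and later gene lists the share reflects annotation as well as peaks. Of the 16 genes, 10 had a line with at least 50 intron bases, beside 384 of the 1681 genes in all. In Nexn, whose product nexilin binds actin at the Z-disc, 4 retained-intron lines were listed in each list and all shared protein-coding bases. Its leading line at chr3:152242740-152244136 had a fold of 8.36 in NC (FDR listed as 0) and 8.15 in CHAPIR (FDR 1e-200), with 113 of 452 bases in intron. The protein-coding folds there were 8.05 and 4.95.

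In Tnnc1, which encodes cardiac troponin C, the line at chr14:31210192-31210998 was identical in both lists, with 450 bases of which 320 were intron. Its fold of 5.28 in NC and 8.62 in CHAPIR stood above the protein-coding folds of 1.71 and 3.38. In Tnnt2, 3 retained-intron lines were listed in each list, and 194 of the 205 bases of the line at chr1:135849450-135849654 were intron. That line had a fold of 5.75 in NC and 2.77 in CHAPIR, below the 11.1 and 10.7 of the protein-coding partner. The line of 3 blocks that starts at chr1:135836390 was close to its protein-coding partner, at 4.9 against 4.94 in NC and 3.06 against 2.96 in CHAPIR.

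Actn2, the gene of alpha-actinin 2, had 1 retained-intron line in each list, and all of its bases lay under protein-coding peaks. The NC line covered 208 bases at a fold of 1.34 and the CHAPIR line 385 bases at 9.04, reaching to the gene start printed above. The protein-coding folds were 1.33 and 9.03, close to the retained-intron values in each list. In Tnni3, cardiac troponin I, the NC list held 3 retained-intron lines, of which 1 at chr7:4521546-4521751 was counted wholly as intron (206 bases, fold 2.52). The CHAPIR list held 5, all sharing protein-coding bases, and a line that overlapped that stretch, at chr7:4521341-4521663, had 281 intron bases at 3.25.

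Myh6 and Myh7, the alpha and beta myosin heavy chains, both had retained-intron peaks in both lists and a further NC line on the retained-intron model alone. In Myh6 the leading line had a fold of 5.59 in NC and 2.72 in CHAPIR beside protein-coding folds of 5.68 and 3.62, and the NC line on the model alone, 86 bases at chr14:54957100-54957185, had 2.31. In Myh7 the leading folds were 3.77 and 3.90 and the extra NC line, 151 bases at chr14:54986700-54986850, had 4.88. The 2 genes are close copies and neighbours, as the calmodulin genes are copies, so reads may be split between them. Myh7 was the 1 gene with a retained-intron peak among 11 fetal and stress genes with any peak (9.09%, beside 25.3% of all genes). Des, the gene of desmin, had its single line in NC only, 597 bases at a fold of 1.68.

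Among calcium handling and ion channel genes, 12 of 38 had a retained-intron peak (31.6%), 8 in both lists, 1 in NC only and 3 in CHAPIR only. The share is near the 25.3% of all genes and is not a result about this group. Atp2a2, which encodes the calcium pump SERCA2, had 1 line with the same 437 bases in both lists (chr5:122489196-122501617), at folds of 5.53 and 9.51 and with an FDR listed as 0 in both. The protein-coding folds were 6.07 and 7.75. Casq2, the calcium store protein calsequestrin, also had the same line in both lists (448 bases, chr3:102144170-102145585), all under protein-coding peaks. Its folds of 7.51 and 8.84 were above the protein-coding 3.59 and 4.78.

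Trdn, the gene of triadin, a partner of the calcium release channel, had 2 retained-intron lines, in the CHAPIR list only. All 209 bases of 1 line (chr10:33199180-33199388, fold 9.54) were counted as intron by the measure above. Fxyd1, the gene of the sodium pump regulator phospholemman, had 3 lines in CHAPIR only and no NC line of any biotype. Its leading line of 175 bases had a fold of 5.05 (FDR 1e-161), and 1 line of 202 bases lay on the retained-intron model alone at 5.41. Ryr2, the calcium release channel, had 1 NC line of 90 bases (fold 1.76) and 2 CHAPIR lines (3.6 and 1.51).

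Splicing factors and RNA-binding proteins had retained-intron peaks in 58 of 98 genes with any peak (59.2%), beside 25.3% of all genes. How many genes of either set have an annotated retained-intron transcript was not counted, so the gap cannot be read as a trait of the group. Of the 58, 43 were in both lists, 12 in NC only and 3 in CHAPIR only. At least 50 intron bases were held by 30 of the 58, beside 384 of the 1681 genes in all. Of 8 genes known for regulated intron retention that had a peak, 6 had a retained-intron peak, among them Clk1, Hnrnpa2b1, Srsf5, Ddx5 and Pabpn1, and all 6 had at least 50 intron bases. All 6 are counted among the splicing factors and RNA-binding proteins as well, and the backgrounds of 25.3% and of 384 of 1681 genes are the same.

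Clk1 encodes a kinase of SR proteins and is a known case of a held-back intron. Its intron at chr1:58417180-58417266 (87 bases) was spanned in both lists, by an NC line of fold 2.79 and a CHAPIR line of 3.49, beside protein-coding folds of 2.57 and 2.59. All 5 Clk1 lines in each list shared protein-coding bases, at folds of 2.56 to 2.79 in NC and 2.47 to 3.49 in CHAPIR. The Clk1 lines were thus close to each other and to the coding transcript.

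Srsf5, an SR splicing factor, had 7 retained-intron lines in NC and 5 in CHAPIR. The leading line of each list had 479 bases at 3.28 in NC and 509 bases at 20.8 in CHAPIR, against protein-coding folds of 3.22 and 29.1. A line of 1 block in each list (269 and 299 bases) held 162 intron bases, at 3.44 and 3.21. In the CHAPIR list the fold was high on the 2 lines of 5 blocks (20.8 and 25.7) and low on the line over the intron. In Hnrnpu, a nuclear RNA-binding protein, the leading line with 165 intron bases had folds of 11.3 and 7.07 against protein-coding folds of 5.22 and 3.85, higher on the retained-intron line in both lists.

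In Ddx5, an RNA helicase, the intron at chr11:106784019-106784100 (82 bases) was spanned in both lists at 2.67 and 2.52, above the protein-coding 1.55 and 1.40.

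Snrnp70, a U1 particle protein, had the leading retained-intron line of the splicing list in NC, 983 bases at a fold of 9.55 (protein-coding 6.79), and a CHAPIR line of 360 bases at 3.39 (protein-coding 3.36). Arglu1, an arginine- and glutamate-rich nuclear protein, had a line with 122 intron bases at 14.4 in NC and 27.6 in CHAPIR, next to protein-coding folds of 14.3 and 24.7. In Rsrp1, an arginine- and serine-rich protein, neither list had a protein-coding line, and the retained-intron line at chr4:134927043-134927402 (360 bases, fold 7.69) in NC was met by a CHAPIR line of 330 bases at 19.8 (FDR 1e-131).

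Genes of the m6A machinery had retained-intron peaks in 4 of 13 with any peak (30.8%), a share near the 25.3% of all genes and not a result about this group. They were Ythdc1, the nuclear reader, Ythdf2, a cytoplasmic reader of decay, and Hnrnpa2b1 in both lists, and Rbm15, a recruiter of the writer complex, in NC only. The Ythdc1 lines had folds of 6.72 in NC and 3.64 in CHAPIR and no intron base. Ythdf2 had 4.65 and 5.14, the latter beside a protein-coding fold of 20.8. Hnrnpa2b1 had 6 NC and 9 CHAPIR lines, and its leading line in NC spanned an intron of 156 bases at 3.75.

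Cytosolic ribosomal protein genes had retained-intron peaks in 35 of 63 (55.6%, beside 25.3% of all genes), 20 in both lists, 3 in NC only and 12 in CHAPIR only. Nuclear-encoded oxidative phosphorylation genes had them in 22 of 64 (34.4%), 12 in both, 1 in NC only and 9 in CHAPIR only. Annotated retained-intron transcripts were not counted for these groups either. In both groups CHAPIR-only genes outnumbered NC-only genes, while over all genes with a retained-intron peak it was 240 against 644. With the lists cut to equal length, the CHAPIR-only and NC-only genes numbered 13 and 3 for ribosomal proteins and 10 and 0 for oxidative phosphorylation. Over all genes with a retained-intron peak they numbered 310 and 355. How these groups split by list in peaks of any biotype was not counted. Whether the excess of CHAPIR-only genes is particular to retained-intron peaks is thus not known. Ribosomal protein genes have many processed copies, and the labels do not say how reads shared with these were handled.

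Rps24 had 2 NC lines and 6 CHAPIR lines, and 3 of the CHAPIR lines were counted wholly as intron. These were at chr14:24493494-24493672 (179 bases, fold 5.72, FDR 1e-106), chr14:24495458-24495607 (150 bases, 7.70) and chr14:24494089-24494238 (150 bases, 3.64). The NC lines overlapped the first of these stretches at 2.57 and 2.40, and no NC line overlapped the other 2.

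Rpl41 had 4 lines in CHAPIR only, at folds of 1.70 to 2.34, 2 of them with at least 50 intron bases. Rpl37 had 3 in CHAPIR only, of which those at chr15:5117773-5117860 (5.98) and chr15:5117750-5117870 (4.71) shared no base with a protein-coding line. Neither Rpl41 nor Rpl37 had an NC line of any biotype. Cox7b, a subunit of respiratory complex IV, had the smallest FDR among CHAPIR-only genes (listed as 0), at a fold of 4.50 and a protein-coding fold of 9.66. An NC line of another biotype overlapped it, so its place in this class rests on which transcripts were listed.

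Atp5j, of the ATP synthase, had 4 lines in CHAPIR only, the leading one at 4.26 on both the retained-intron and the protein-coding transcript. The gene had no NC line of any biotype. Ndufb10, of complex I, had 3 lines in each list. The CHAPIR list gave a fold of 4.11 on all 3 and the NC list 2.35 on all 3. A CHAPIR line of 388 bases ran through the intron at chr17:24722221-24722380 (160 bases), which the NC lines of 175 to 201 bases did not span. Uqcrh, of complex III, had a line of 423 bases in both lists with 54 intron bases, at 1.78 and 2.69. A second Uqcrh line in both lists, of 179 bases at 1.80 and 1.91, reached the gene start printed above.

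Chromatin regulators had retained-intron peaks in 28 of 46 genes (60.9%, beside 25.3% of all genes), 12 in both lists, 13 in NC only and 3 in CHAPIR only. Zfp zinc finger genes had them in 21 of 121 (17.4%), 10 in both, 11 in NC only and none in CHAPIR only. These shares too were not matched for annotated retained-intron transcripts. In Smarca2, an ATPase of the BAF remodelling complex, the leading lines had 837 bases at 7.12 in NC and 658 bases at 3.64 in CHAPIR, both with 144 intron bases. Setd5 had lines of 421 bases in both lists at 8.37 and 9.66. A CHAPIR line of Setd5 at chr6:113117543-113117752 held 135 intron bases at 6.42, where the NC lines held 16 at most. Ehmt2, a histone H3 methyltransferase, had 3 lines in NC only, all with intron bases and at folds of 2.32 to 3.22. Zfp106, a zinc finger protein that binds RNA, had a line of 1229 bases at 15.6 in NC and one of 810 bases at 6.30 in CHAPIR.

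Translation factors had retained-intron peaks in 20 of 49 genes (40.8%, beside 25.3% of all genes), 10 in both lists. Eif5b, which joins ribosomal subunits, had lines of 1770 bases at 11.3 in NC and 1800 bases at 15.6 in CHAPIR, both with 165 intron bases. Eif4e, the cap-binding protein, had the same 234 bases in both lists at 3.17 and 6.24, above the protein-coding 1.98 and 2.96.

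**Figure D5:**
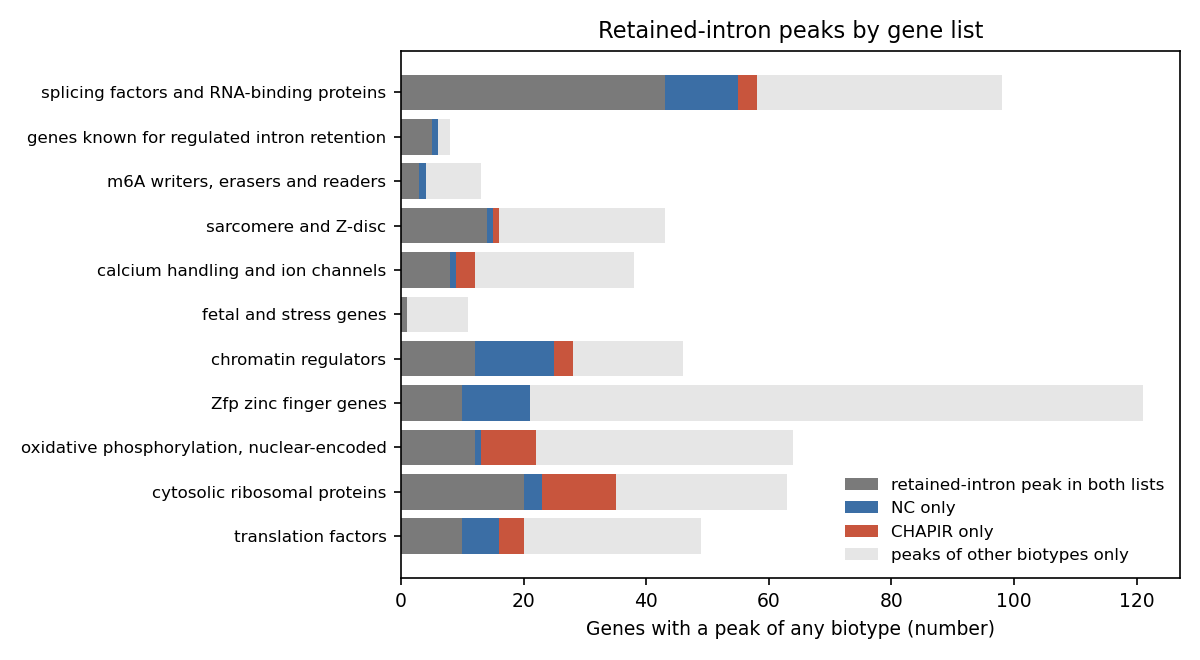
Genes of each list with a peak of any biotype (x axis, number of genes), split by whether a retained-intron peak was listed in both lists (grey), in NC only (blue), in CHAPIR only (red) or not at all (pale). Chromatin regulators, splicing factors and ribosomal proteins have 28 of 46, 58 of 98 and 35 of 63 genes with a retained-intron peak, and Zfp genes 21 of 121.

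The NC-only genes with the smallest FDRs had peaks that shared protein-coding bases. Tap2, a peptide transporter of antigen presentation, had 1 line of 448 bases at a fold of 17.2 (FDR 3.98e-34) beside a protein-coding fold of 31.1. Fam50a had 3 lines, the leading one at 9.79. Sptan1, alpha-spectrin of the membrane skeleton, had 2, the leading one with 184 intron bases at 4.86. None of these leading lines was overlapped by a CHAPIR line of any biotype.

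On the retained-intron model alone, the NC-only genes with the smallest FDRs were Ppp4r1l-ps and Nr1i3. Ppp4r1l-ps, which RefSeq lists as a transcribed pseudogene, had 1 block of 899 bases at chr2:173585654-173586552 with a fold of 10.3 (FDR 7.94e-17). Nr1i3, a nuclear receptor of xenobiotic metabolism, had 358 bases at chr1:171217825-171218182 with 6.07 (FDR 2.00e-16). Neither gene had a protein-coding line in the NC list. Cald1 and Tmem82 had 2 NC lines each, 1 of them on the model alone.

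Mettl23, a protein methyltransferase, was among the 4 CHAPIR-only genes of smallest FDR with a line on the retained-intron model alone. Its only retained-intron line was of this kind, at chr11:116849884-116850092 on the plus strand (209 bases, fold 10.6, FDR 1.26e-19). A retained-intron line of Srsf2, an SR splicing factor, covered chr11:116849904-116850053 on the minus strand in the same list, at a fold of 11.4 (FDR 2.51e-19) and with a protein-coding fold of 11.4. Both genes had retained-intron lines in CHAPIR only. The labels do not say whether peak calling used strand, so reads from the 2 genes cannot be told apart. Over all lines on the retained-intron model alone, 16 of 217 in NC and 15 of 145 in CHAPIR shared bases with a protein-coding line of another gene name or strand. Ly6e, a membrane protein of the Ly6 family, had a CHAPIR-only line of 149 bases at 3.61, the same fold as its protein-coding line. No NC line of any biotype was listed for Ly6e.

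In 3 genes chosen after their values were seen, peaks on the retained-intron model alone overlapped between the lists. Snapc3, of the small nuclear RNA activating complex, had a line at chr4:83464896-83465252 (6.65) in NC and one of 298 bases within it (8.79) in CHAPIR. Chkb, a choline kinase, had 419 bases at 3.06 in NC and 389 bases sharing its lower end at 3.34 in CHAPIR. H2-Q4, an MHC class I gene with close copies, had 627 bases at 5.86 and 598 bases at 17.3 on the model alone, ending at the same base. Fabp4, a fatty acid carrier of endothelial and fat cells, had its leading line at chr3:10204328-10204715 in NC (388 bases, 145 intron, fold 10.9) and 418 bases sharing its lower end in CHAPIR (175 intron, 42.3), above the protein-coding 6.48 and 30.3 in each list, and 1 NC line of 90 bases on the model alone at 1.88.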

How the data were processed

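Heart mRNA was, per the labels' protocols, fragmented to about 100 nucleotides, immunoprecipitated with an antibody to m6A, made into stranded libraries and sequenced for 150 cycles. Reads were trimmed with cutadapt and aligned with HISAT2 2.1.0, and exomePeak called peaks per transcript, per the labels' protocols. The build is GRCm38, per the submitters' processing notes. The labels name no version, option, threshold or strand setting of exomePeak. The deposited peak tables give each peak's p-value, FDR and fold enrichment (a ratio of immunoprecipitated over input signal), all computed by the authors, with no counts. No file column of another sample was used or left over. The highest FDR among retained-intron lines was 0.0490 in NC and 0.0427 in CHAPIR.

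Lines were grouped by list and compared by exonic blocks (starts raised by 1 for printing), with sharing set at 1 base or more on the same strand. Introns were taken as gaps of at least 50 bases between blocks of protein-coding lines of the gene, and a whole intron as one spanned by a block with at least 90% of it outside protein-coding blocks. No genome was used, so peak-wide motif searches were not run, and positions used RefSeq gene spans (GRCm38.p6). Genes were named as the 4 of smallest FDR (ties by fold) in each class of list and kind, without model names, and up to 6 per gene list, with values from the line of smallest FDR unless stated. Others were chosen after their values were seen. They include the printed start stretches, the further lines of named genes, and Ndufb10, Setd5, Ehmt2, Rps24, Hnrnpu, Trdn and Mettl23's neighbour Srsf2. The members and the 18 gene lists were chosen with earlier results of these data known. Python 3.11.15, pandas 2.3.3, numpy 2.4.6, scipy 1.17.1 and matplotlib 3.10.9 were used. The overlap and intron steps, tested on simulated data, recovered 500 of 500 lines each.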

Additional observations from a re-analysis of the deposited data

How the results depend on the processing

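No paired analysis was possible because each group has 1 immunoprecipitated sample over 1 input and no result comes from a test. Of 50 values recomputed under other settings, 27 stayed within the counting interval (shares) or within 1.5 times (counts) and 23 moved further. At an FDR at or under 1e-05, the overlap of NC lines by the CHAPIR list was 60.5%, sharing with protein-coding lines 95.8% (NC) and 95.3% (CHAPIR), and genes numbered 509 in both lists, 384 in NC only and 155 in CHAPIR only. Where lines had a fold of 4 or more, overlap was 44.6% (NC) and 54.0% (CHAPIR), sharing 86.0% and 80.8%, with 296 genes in both lists and 409 in NC only. Over all lines of any biotype, overlap was 56.8% (NC) at that FDR, and 42.7% (NC) and 50% (CHAPIR) at that fold. In the full lists it was 50.5% and 72.3% of all lines. These moves in overlap had the same direction in all lines and are thus not particular to retained-intron lines. With lists cut to equal length, overlap of retained-intron lines was 65.5% and 70.5%, NC sharing 94.5%, and 355 genes were in NC only and 310 in CHAPIR only. With at least 50% of both peaks shared, overlap was 36.5% and 55.9% and sharing 64.9% and 73.5%. The overlap of all lines under that rule was not computed, so the drop is not a result about retained-intron lines. Counting genes absent from the other list in any biotype gave 422 NC-only genes. The split of genes with a peak of any biotype was not computed at the FDR, fold or equal-length settings. The gene counts at these settings thus have no background. With at least 100 intron bases, a limit chosen after seeing the data like the other intron settings, the lines numbered 367 in NC and 155 in CHAPIR. Stricter settings keep fewer lines by construction, and the cause of the moves in percent was not tested. The deposited lists hold no depth, so how depth bears on the longer NC list cannot be told.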

Other observations

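Gas5 and Snhg1 are long non-coding RNAs that host small nucleolar RNAs in their introns, and their retained-intron lines had no protein-coding line to share. Gas5 had 12 lines in the NC list, the largest number on any gene there, at folds of 1.57 to 2.47, and 8 in the CHAPIR list at 1.47 to 4.37. Each Gas5 line was overlapped by a line of the other list. Snhg1 had 7 lines in each list, at folds of 10.2 to 14.5 in NC and 8.84 to 9.88 in CHAPIR, and within each list they lay over nearly the same stretch (chr19:8726263-8726414 at most in NC). These genes were chosen after their values were seen.

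Among markers of other cell types, Pecam1 (endothelial) had a retained-intron peak in both lists, at folds of 1.92 and 3.74, and Tagln (smooth muscle) had one in NC only at 3.54. Of the short lists used here, 5 fibroblast, 8 macrophage and immune and 4 adipocyte markers had a peak, none of them on a retained-intron transcript, and neither erythroid marker had a peak. Of the 6 cardiomyocyte markers, Myh6, Tnnt2, Tnni3 and Ryr2 had retained-intron peaks in both lists. Over all genes with a peak the share was 25.3%, and these lists are too short for a result about a cell type. Fabp4, described above as a carrier of endothelial and fat cells, is not on the adipocyte list and had retained-intron peaks in both lists.

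The CHAPIR-only intron stretches of at least 50 bases numbered 22 (4.04%), against 319 in NC only (58.6%) and 203 in both lists (37.3%). Over all genes with a peak of any biotype, 15.3% were in CHAPIR only, 31.3% in NC only and 53.5% in both. The NC list is longer and its paired peaks were wider, so these counts give no difference between the groups. The stretches in CHAPIR only included those in Trdn (209 bases), Myl3 (132), Ndufb10 (160) and Rps24 (178 and 170). In Myl3, the ventricular essential myosin light chain, the CHAPIR line of 445 bases had a fold of 2.84 (FDR listed as 0), while the NC line had 178 bases, no intron base and a fold of 1.45.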
